A study of Sus scrofa with 13 samples.

Results

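PPARG, THRSP, SCD and DGAT2, 4 genes of fat cell identity and fatty acid storage, were followed across 13 arrays of pig biceps femoris, a muscle of the hind leg. They were taken by their symbols from the 10283 genes that the probe annotation names. PPARG, SCD and DGAT2 were each read by 1 probe set (15216530, 15228053 and 15325200). THRSP was read by 2 probe sets, 15325292 and 15329626, whose values were identical on every array, so they count as 1 measurement. The animals were German Landrace pigs of 2 genotypes and 2 ages: 4 DMD KO and 3 wild-type (WT) pigs aged 2 days, with 3 of each genotype aged 3 months. DMD KO animals lacked exon 52 of DMD, the gene of dystrophin, and had been cloned by transfer of nuclei from edited primary kidney cells, the construct being a porcine bacterial artificial chromosome without that exon. Their muscle was taken at necropsy right after death, whereas WT animals were euthanised at matching ages. Genotype, cloning and manner of death therefore cannot be told apart in any difference between DMD KO and WT given here. Each sample was 1 array, and the series text calls the samples biological replicates.

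PPARG encodes the nuclear receptor that switches on and maintains the fat cell program. THRSP is a small nuclear protein that rises with carbohydrate feeding and thyroid hormone and promotes fatty acid synthesis. SCD, stearoyl-CoA desaturase, puts the first double bond into saturated fatty acids, and DGAT2 joins the last fatty acid to diacylglycerol to give triglyceride. In skeletal muscle these genes are active in the fat cells that lie between the fibres and, at a lower level, in the fibres themselves, where lipid is stored in droplets.

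The deposited values ran from 2.81 to 13.79 over 21893 probe sets, the array medians lay between 7.32 and 7.38, and they are read here as log2 levels. The values carry no detection calls, so a level near the array median cannot be set apart from background here. Arrays give no depth, and their number limits how precise a difference can be. WT replicate 3 at 2 days stood apart, with a mean correlation of 0.918 to the other arrays across probe sets, against 0.943 to 0.964 for the other 12 arrays. For the DMD probe set, the 4 DMD KO pigs of 2 days averaged 12.2 ± 0.10 and the 3 WT pigs 12.1 ± 0.47 (SD), and at 3 months the averages were 11.7 ± 0.16 and 11.9 ± 0.10. Its differences, 0.11 (adjusted p = 0.705) and -0.22 (adjusted p = 0.528) by limma, did not pass the test. The 5 measured muscle fibre markers averaged 11.2 to 11.9 on every array, so the tissue label was borne out by them. Where the probes of DMD lie relative to exon 52 is not known here, so this probe set does not check the genotype labels.

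At 2 days the expression of SCD, DGAT2 and THRSP was lower in DMD KO than in WT muscle by limma with Benjamini-Hochberg adjustment over all probe sets, and PPARG lay just outside the threshold of 0.05. In the deposited values SCD was 3.56-fold lower, DGAT2 1.82-fold and THRSP 1.68-fold. The DMD KO means of SCD (7.18) and DGAT2 (7.35) lay at or below the array medians, where background cannot be set apart, so these folds describe the deposited values and not measured RNA amounts. Of all 21893 probe sets, 9.93% passed in this comparison and 2.85% passed as lower. On each of the 4 genes every DMD KO animal lay below every WT animal at 2 days, which held for 10.5% of all probe sets. At 3 months none of the 4 genes passed limma's test, SCD alone being under 0.05 before adjustment, and 5.98% of all probe sets passed. In bulk muscle, fewer cells of a type and less RNA per cell cannot be told apart, and that holds for every level given here.

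**Figure D1:**
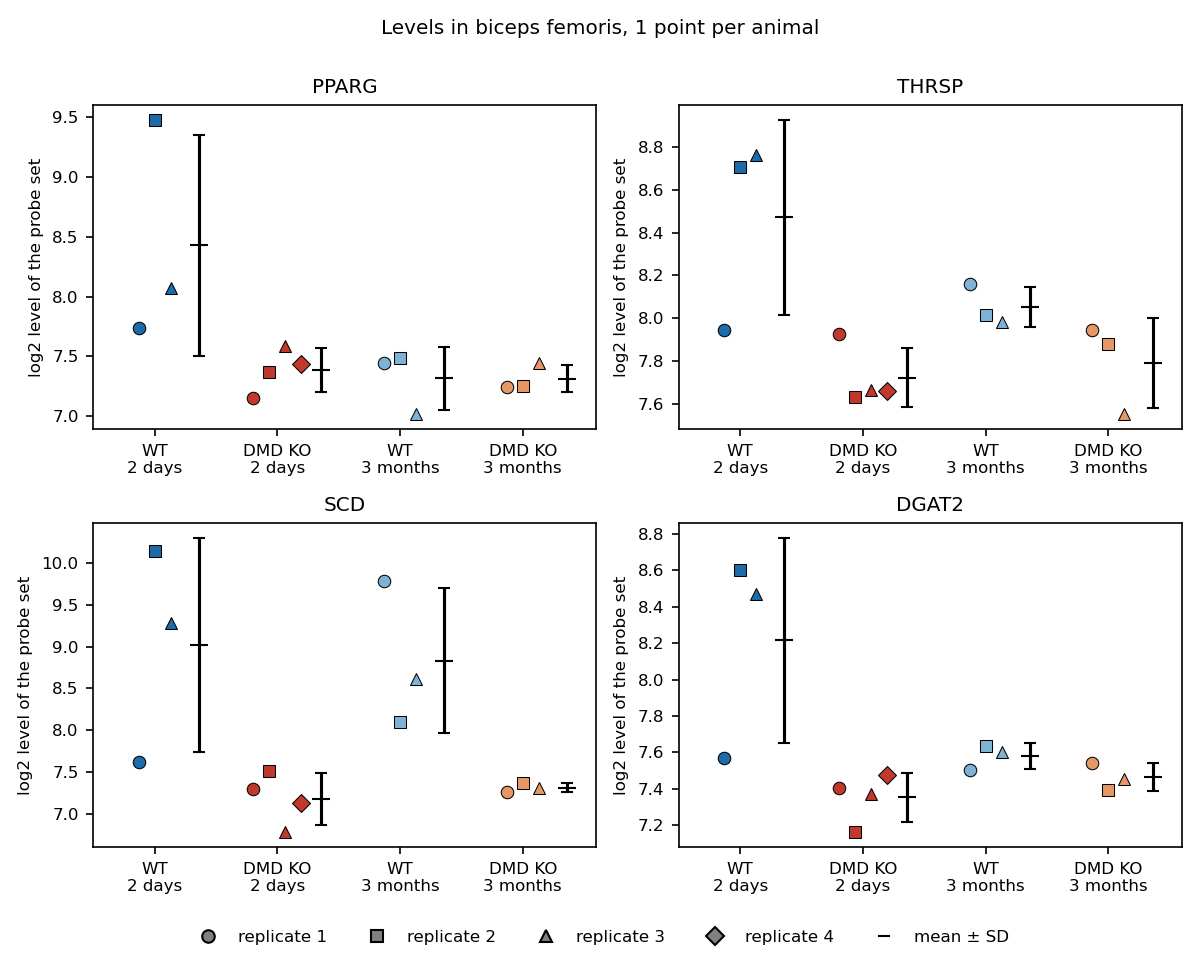
Log2 levels of PPARG, THRSP, SCD and DGAT2 on each of the 13 arrays (vertical axis), by genotype and age (horizontal axis), with the replicate number as symbol and the mean ± SD of each group beside its points. In WT at 2 days, replicate 1 sits at 7.74, 7.95, 7.63 and 7.57 in that order of genes, close to the DMD KO animals of the same age, and replicates 2 and 3 lie above it; each panel has its own scale, which does not start at 0.

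PPARG stood at 7.74, 9.47 and 8.07 in WT replicates 1 to 3 at 2 days. The DMD KO animals of that age read 7.15, 7.37, 7.59 and 7.44. The groups did not overlap, the highest DMD KO value lying 0.15 below the lowest WT value, and WT replicate 2 was far above the other 2 WT animals. The difference, DMD KO minus WT, was -1.04 ± 0.31 (SE; 95% interval -1.71 to -0.37), with an adjusted p of 0.0526 by limma. It rested on WT replicate 2, without which it was -0.52. Without WT replicate 1 it was -1.39 and passed (adjusted p = 0.0155). At 3 months PPARG read 7.44, 7.49 and 7.02 in WT and 7.25, 7.25 and 7.44 in DMD KO. These groups overlapped, and the difference was 0.00 within its interval of -0.72 to 0.72 (limma adjusted p = 0.999). By group mean the order was WT at 2 days (8.43 ± 0.92), DMD KO at 2 days (7.39 ± 0.18), WT at 3 months (7.32 ± 0.26) and DMD KO at 3 months (7.31 ± 0.11, SD), and the last 3 groups overlapped.

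THRSP stood at 7.95, 8.70 and 8.76 in WT replicates 1 to 3 at 2 days. In DMD KO replicates 1 to 4 it read 7.93, 7.63, 7.67 and 7.66. WT replicate 1 and DMD KO replicate 1 were only 0.02 apart, while WT replicates 2 and 3 stood clear of all DMD KO animals. THRSP fell by 0.75 ± 0.18 in DMD KO (SE; 95% interval of the difference -1.13 to -0.37, limma adjusted p = 0.0203). At 3 months it read 8.16, 8.01 and 7.98 in WT and 7.95, 7.88 and 7.55 in DMD KO, again without overlap, by 0.04. That difference, -0.26 ± 0.19 (SE; interval -0.67 to 0.15), did not pass the test (limma adjusted p = 0.481). The order of group means was WT at 2 days (8.47 ± 0.45), WT at 3 months (8.05 ± 0.09), DMD KO at 3 months (7.79 ± 0.21) and DMD KO at 2 days (7.72 ± 0.14, SD). Of the neighbours in this order, only WT and DMD KO at 3 months did not overlap.

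SCD varied most among the WT animals. It read 7.63, 10.14 and 9.28 in WT replicates 1 to 3 at 2 days, and 7.30, 7.51, 6.78 and 7.14 in DMD KO replicates 1 to 4. Replicate 1 of WT lay 0.12 above the highest DMD KO animal, while WT replicates 2 and 3 lay far above. SCD fell by 1.83 ± 0.49 (SE; 95% interval of the difference -2.90 to -0.77, limma adjusted p = 0.0347). At 3 months SCD read 9.78, 8.10 and 8.61 in WT and 7.26, 7.38 and 7.31 in DMD KO. Here the lowest WT animal lay 0.73 above the highest DMD KO animal; such a lack of overlap, with DMD KO below WT, was found for 10.1% of probe sets. The difference of -1.52 ± 0.52 (SE; interval -2.65 to -0.38) corresponds to a 2.86-fold lower level and did not pass over all probe sets (limma adjusted p = 0.127). Across the 4 groups the order was WT at 2 days (9.02 ± 1.28), WT at 3 months (8.83 ± 0.86), DMD KO at 3 months (7.32 ± 0.06) and DMD KO at 2 days (7.18 ± 0.31, SD). The 7 DMD KO animals of both ages lay between 6.78 and 7.51 and the 6 WT animals between 7.63 and 10.14, so the genotypes did not overlap over the whole series. How many probe sets show such a split over both ages together was not counted.

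DGAT2 stood at 7.57, 8.60 and 8.47 in WT replicates 1 to 3 at 2 days, and at 7.40, 7.16, 7.37 and 7.47 in DMD KO replicates 1 to 4. The gap between the groups was 0.09, and once more it was WT replicate 1 that lay next to the DMD KO animals. DGAT2 fell by 0.86 ± 0.19 (SE; 95% interval of the difference -1.28 to -0.44, limma adjusted p = 0.0157). At 3 months it read 7.50, 7.64 and 7.60 in WT and 7.54, 7.39 and 7.46 in DMD KO. These overlapped, and the difference of -0.12 ± 0.21 (SE; interval -0.57 to 0.33) did not pass (limma adjusted p = 0.768). The group means ran from WT at 2 days (8.22 ± 0.56) through WT at 3 months (7.58 ± 0.07) and DMD KO at 3 months (7.46 ± 0.08) to DMD KO at 2 days (7.35 ± 0.13, SD). Each group overlapped its neighbour in that order.

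**Figure D2:**
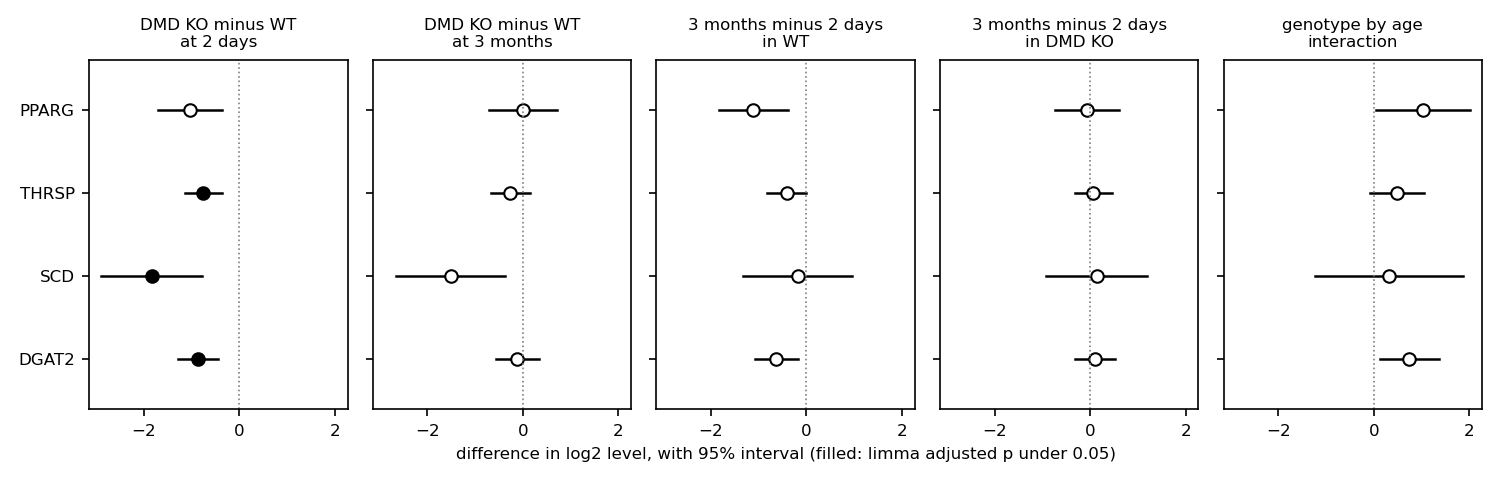
Differences in log2 level (horizontal axis) of PPARG, THRSP, SCD and DGAT2 in 5 comparisons, 1 per panel, with 95% intervals of limma; filled points passed the adjusted p of 0.05. The filled points are THRSP, SCD and DGAT2 at 2 days, at -0.75, -1.83 and -0.86.

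The calls at 2 days depended on single animals. SCD passed with 7 of the 13 arrays left out in turn and was lost without any of the 4 DMD KO animals or without WT replicate 2 or 3 at 2 days, its difference ranging from -2.53 to -1.27. THRSP passed in 9 of 13 (-1.01 to -0.60), being lost without DMD KO replicate 2, 3 or 4 or WT replicate 3. DGAT2 passed in 12 of 13 (-1.19 to -0.67) and was lost without WT replicate 3 (limma adjusted p = 0.0667). The difference kept its sign for each gene whichever array was left out. With arrays weighted by their fit to the model, WT replicate 1 at 2 days took a weight of 4.73 and replicates 2 and 3 took 0.64 and 0.19. The differences then shrank to -0.80 for SCD, -0.34 for THRSP and -0.36 for DGAT2, and none passed (limma adjusted p = 0.148, 0.0816 and 0.123). A fit on the 7 arrays of that age alone left the differences as they were and also passed none, with adjusted p of 0.0761, 0.0669 and 0.072.

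**Figure D3:**
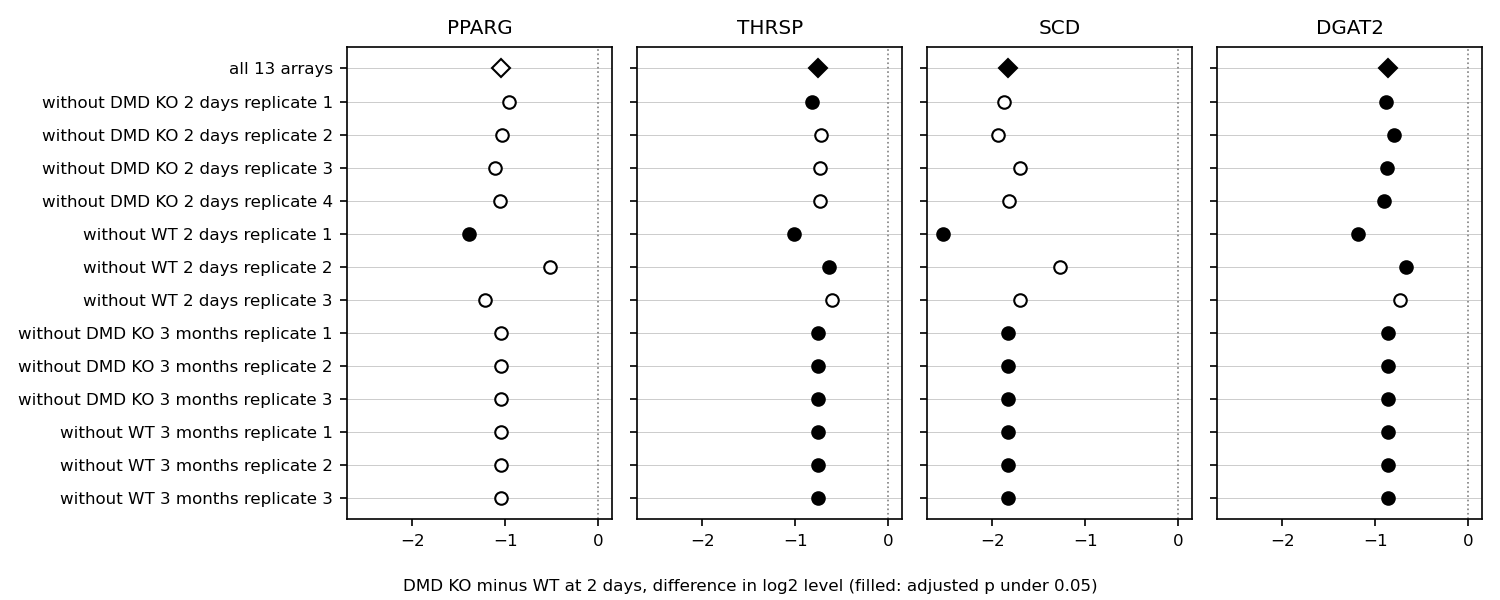
Difference in log2 level, DMD KO minus WT at 2 days (horizontal axis), with all 13 arrays (diamonds) and with each array left out in turn (circles); filled symbols passed limma's adjusted p of 0.05. SCD runs from -2.53 without WT replicate 1 to -1.27 without WT replicate 2, and PPARG from -1.39 to -0.52 for the same arrays.

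With age, none of the 4 genes passed limma's test in DMD KO muscle. The differences, 3 months minus 2 days, were 0.13 for SCD, 0.11 for DGAT2, 0.07 for THRSP and -0.07 for PPARG, with limma adjusted p of 0.966, 0.908, 0.944 and 0.973, none was under 0.05 unadjusted, and 8.04% of all probe sets passed. In WT muscle they were -1.11 ± 0.33 for PPARG, -0.63 ± 0.21 for DGAT2, -0.42 ± 0.19 for THRSP and -0.18 for SCD (SE). None passed (limma adjusted p = 0.111, 0.151, 0.369 and 0.954; 3 were lower at an unadjusted p under 0.05; 2.89% of all probe sets passed). Without WT replicate 1 at 2 days the differences of DGAT2 (-0.96, adjusted p = 0.00138), THRSP (-0.68, 0.0247) and PPARG (-1.46, 0.0346) passed limma's test, so 1 animal decided these calls. The interaction, by how much the DMD KO minus WT value at 3 months exceeded the one at 2 days, was 1.04 ± 0.45 for PPARG, 0.74 ± 0.28 for DGAT2, 0.49 ± 0.26 for THRSP and 0.32 ± 0.72 for SCD (SE). With limma adjusted p of 0.276, 0.191, 0.409 and 0.918, the genotype difference was not shown to differ between ages for any of the 4, of which 2 were under 0.05 unadjusted, while 5.05% of all probe sets passed. Without WT replicate 1 at 2 days it was 1.07 for DGAT2 (adjusted p = 0.00224) and 0.75 for THRSP (0.0343), which passed.

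Around the 4 genes, the pathway from sugar to stored fat was read through lists of its enzymes. The named genes of the series had a median difference of -0.02 at 2 days and -0.03 at 3 months. Of all probe sets, 9.93% passed at 2 days, 2.85% as lower, and 5.98% passed at 3 months. Each count in the lists that follow stands beside these shares, and no set test was run. Among 8 measured genes of fatty acid synthesis and its supply, 2 fell and 1 rose at 2 days, with a median difference of -0.36. TECR, the last enzyme of the elongation cycle, fell by 0.70 ± 0.13 (SE) and PGD, which makes NADPH in the pentose phosphate pathway, by 0.48 ± 0.11 (limma adjusted p = 0.00625 and 0.0196). ACSS2, which activates acetate, rose by 0.40 ± 0.11 (0.0446). The call of ACSS2 held with 4 of the 13 arrays left out in turn, its difference ranging from 0.30 to 0.46, and that of PGD was lost without DMD KO replicate 4 (-0.33). ACLY, which makes cytosolic acetyl-CoA, had a difference of -0.35 (0.318). At 3 months TECR alone of the 8 passed, at -0.60 ± 0.14 (limma adjusted p = 0.0223), and the median was -0.10; this call was lost without DMD KO replicate 1 or 3 or WT replicate 1 or 3 (-0.68 to -0.52). Fatty acid synthase, acetyl-CoA carboxylase alpha and SREBF1 had no probe set with their symbol and were not analysed here.

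Of 12 measured genes of fatty acid elongation and desaturation other than SCD, 2 fell at 2 days and none rose, with a median of -0.16. FADS1, a desaturase of polyunsaturated fatty acids, fell by 0.62 ± 0.14 and ELOVL7, an elongase, by 0.42 ± 0.08 (SE; limma adjusted p = 0.0193 and 0.00857). The call of FADS1 was lost without DMD KO replicate 2 or 4 or WT replicate 3 (-0.75 to -0.54 with arrays left out). SCD5, another stearoyl-CoA desaturase, had a difference of -0.26 (0.234). None of the 12 passed limma's test at 3 months, where 1 was higher and 0 lower at an unadjusted p under 0.05. TECR, an enzyme of the elongation cycle that was counted with synthesis above, is not among the 12 and fell at each age.

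The genes of triglyceride assembly moved in both directions. Of 13 measured besides DGAT2, 3 rose and 1 fell at 2 days, and their median was -0.03. GPAM and GPAT3, which add the first fatty acid to glycerol phosphate, rose by 0.49 ± 0.11 and 0.51 ± 0.12, and LPIN1, the phosphatase that makes diacylglycerol, rose by 0.47 ± 0.11 (SE; limma adjusted p = 0.0124, 0.0211 and 0.0181). GPAT3 lost its call without DMD KO replicate 2 or 4 or WT replicate 1 (0.44 to 0.56), and LPIN1 without DMD KO replicate 4 or WT replicate 3 (0.36 to 0.56). GPAM read 7.50, 7.87, 7.48 and 7.62 in DMD KO replicates 1 to 4 and 7.04, 7.25 and 7.09 in WT replicates 1 to 3, without overlap. The share of all probe sets with every DMD KO animal above every WT animal was not counted. GPD1, which makes glycerol phosphate from a glycolysis intermediate, fell by 1.08 ± 0.15 (0.00144). It read 7.90, 7.37, 7.60 and 7.43 in DMD KO and 8.83, 8.60 and 8.52 in WT, so that, unlike SCD or DGAT2, WT replicate 1 was here the highest WT animal. DGAT1, the other enzyme of the last step, had a difference of -0.25 at 2 days and -0.16 at 3 months (limma adjusted p = 0.159 and 0.465). At 3 months GPD1 fell by 0.88 ± 0.16 (0.00662) and GK, glycerol kinase, rose by 1.76 ± 0.27 (SE; 0.00188), 1 gene each way of the 13. From 2 days to 3 months GPAM and LPIN1 fell by 0.65 and 0.68 in DMD KO muscle (limma adjusted p = 0.00186 and 0.0017), while GPD1 rose with age in DMD KO by 1.45 and in WT by 1.25 (8.81e-05 and 0.00184).

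Lipid droplet and lipolysis genes gave no call among 12 measured at either age by limma at an adjusted p of 0.05, with medians of -0.09 and -0.05. At an unadjusted p under 0.05, 0 were higher and 1 lower at 2 days, and 1 was higher and 1 lower at 3 months. CIDEC, which fuses droplets in fat cells, had a difference of -0.45 at 2 days (adjusted p = 0.0829). It read 6.82, 7.63 and 7.37 in WT replicates 1 to 3 and between 6.76 and 6.92 in DMD KO, the groups overlapping through WT replicate 1. PLIN2, the droplet coat of most cells, differed by 2.10 ± 0.59 at 3 months (SE; limma adjusted p = 0.0581). Its levels there were 10.31, 10.03 and 11.75 in DMD KO and 8.84, 9.17 and 7.79 in WT, without overlap. How many probe sets had DMD KO wholly above WT at that age was not counted either.

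**Figure D4:**
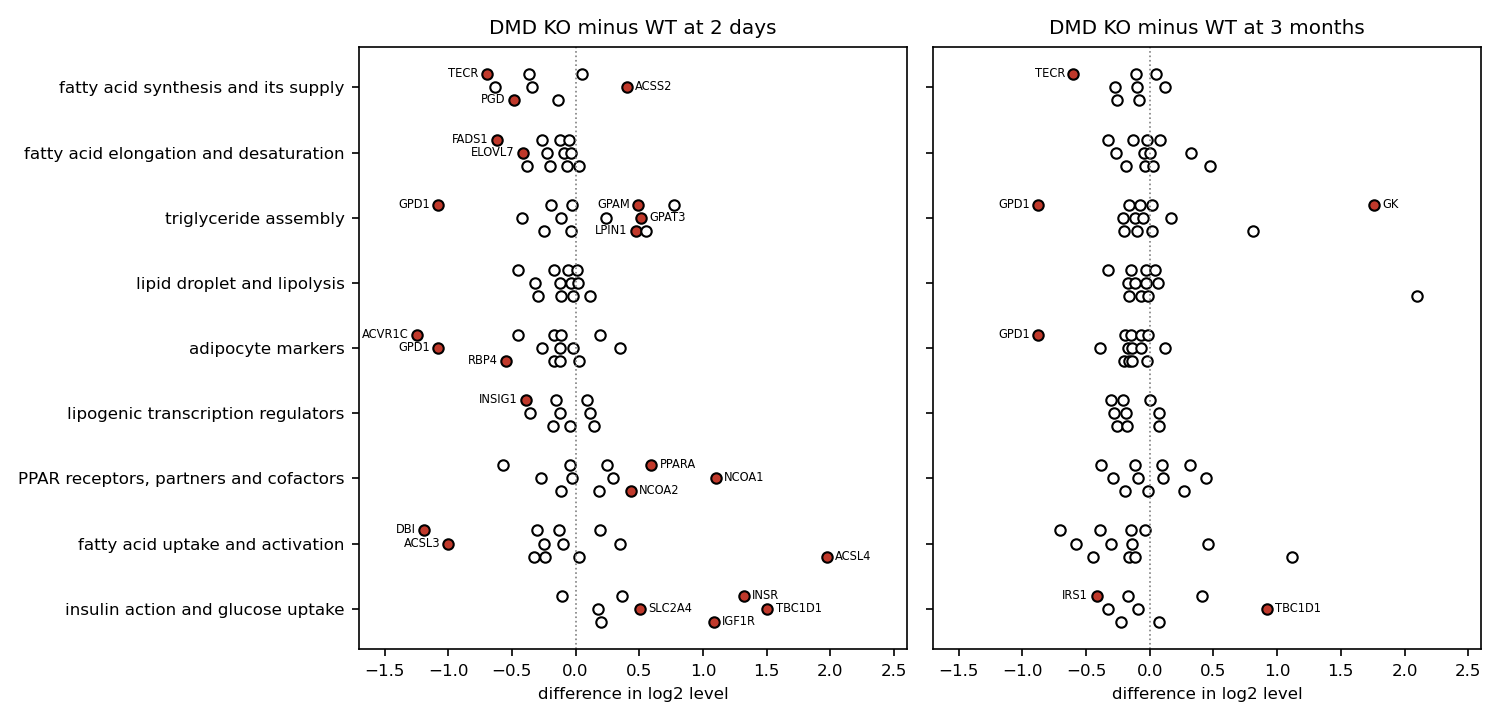
Difference in log2 level, DMD KO minus WT (horizontal axis), of the measured genes of 9 lists at 2 days (left) and 3 months (right), 1 point per gene with the 4 genes of the report left out of the lists; filled and named points passed limma's adjusted p of 0.05. Triglyceride assembly holds points on both sides at 2 days, from GPD1 at -1.08 to GPAT3 at 0.51 among those that passed; vertical offsets within a list only separate points.

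Fat cell markers were read on the same arrays. Of 14 measured adipocyte markers, 3 fell at 2 days and none rose, with a median of -0.15. ACVR1C, a receptor abundant in fat cells, fell by 1.25 ± 0.33, GPD1 by the amount given above and RBP4, a retinol carrier secreted by liver and fat, by 0.54 ± 0.12 (SE; limma adjusted p = 0.0321 for ACVR1C and 0.0126 for RBP4). ACVR1C read 5.85, 7.86 and 6.82 in WT replicates 1 to 3 and 5.53, 5.82, 5.70 and 5.34 in DMD KO. Its call was lost without any DMD KO animal or without WT replicate 3 at 2 days. Without WT replicate 2 its difference was -0.74. Its DMD KO values and that of WT replicate 1 lay below the 25th percentile of every array (6.53 to 6.61), where background cannot be set apart. The fat-cell-restricted markers PLIN1 and LEP differed by -0.11 and -0.17 (limma adjusted p = 0.407 and 0.261). The mean level of the 14 markers was 7.85, 8.20 and 8.05 in WT replicates 1 to 3 and between 7.75 and 7.80 in the DMD KO animals at 2 days, so WT replicate 1 was again nearest to them. At 3 months the mean was 7.76 to 7.94 in WT and 7.61 to 7.68 in DMD KO, and 1 of the 14, GPD1, fell. GPD1 was also counted in triglyceride assembly, was highest in WT replicate 1 among WT at 2 days, and rose with age in both genotypes. The list holds genes not restricted to fat cells. Bulk levels do not show which cells gave a signal, so the calls of GPD1 do not by themselves read fat cells. Neither ADIPOQ nor FABP4 was analysed here. The part of these markers in the levels of SCD, DGAT2, THRSP and PPARG was not tested.

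Among 10 measured markers of preadipocytes and fibro-adipogenic progenitors, the cells from which muscle fat arises, 2 fell and 1 rose at 2 days (median -0.16). THY1 fell by 1.26 ± 0.16 and EBF2, a factor of fat precursor commitment, by 0.75 ± 0.15, while DLK1, which holds precursors undifferentiated, rose by 0.62 ± 0.13 (SE; limma adjusted p = 0.00083, 0.01 and 0.0109). The levels of EBF2 were 7.99, 8.56 and 7.87 in WT and 7.26, 7.38, 7.47 and 7.46 in DMD KO at 2 days, with all WT animals higher. At 3 months 1 of the 10 passed, DPP4, which rose by 0.58 (0.0475), a call that held with 3 of 13 arrays left out in turn (0.51 to 0.64). Fibroblast markers moved far more: 6 of 8 fell at 2 days (median -1.23) and 7 of 8 rose at 3 months (median 0.85; 5 to 7 with an array left out). Their mean level was 10.52 to 10.66 in WT and 9.22 to 9.61 in DMD KO at 2 days, and 9.41 to 9.998 in WT and 10.87 to 10.90 in DMD KO at 3 months. Of 7 macrophage markers none passed limma's test at 2 days (1 higher, 0 lower at an unadjusted p under 0.05) and 4 rose at 3 months, where their mean level was 7.93 to 8.44 in DMD KO and 6.93 to 7.24 in WT. Of 5 muscle fibre markers, 1 rose and 1 fell at 2 days, and at 3 months 1 fell, CKMT2, the mitochondrial creatine kinase of muscle, by 1.29 (limma adjusted p = 0.00184). The part of the other cell types in the levels of the 4 lipid genes was not tested either.

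Regulators that act with PPARG and THRSP were measured in part. Of 9 transcription regulators of lipogenesis, INSIG1, which holds SREBP in the endoplasmic reticulum, fell by 0.39 ± 0.09 at 2 days (SE; limma adjusted p = 0.0205) and no other passed at either age; at 3 months 2 of the 9 were lower at an unadjusted p under 0.05. MLXIPL, the glucose-sensing factor ChREBP, had a difference of -0.18 (0.471). Of 11 PPAR receptors, partners and cofactors, 3 rose at 2 days and none fell (median 0.18): NCOA1 by 1.10 ± 0.17, PPARA, the receptor of fatty acid oxidation, by 0.59 ± 0.16 and NCOA2 by 0.43 ± 0.12 (SE; limma adjusted p = 0.0024, 0.0395 and 0.0339). With arrays left out in turn the call of INSIG1 held in 10 of 13 (lost without DMD KO replicate 2 or 3 or WT replicate 3), that of NCOA2 in 8, that of PPARA in 6 (0.46 to 0.73) and that of NCOA1 in all 13. RXRG, a partner of the PPARs, had a difference of -0.57 (0.0626). None of the 11 passed at 3 months, where 3 were higher and 0 lower at an unadjusted p under 0.05. Of 10 PPAR target genes none passed limma's test at 2 days (0 higher, 1 lower unadjusted), and at 3 months PDK4, which restrains pyruvate oxidation, rose by 3.66 ± 0.61 (SE; 0.00322). In thyroid hormone action, 1 of 6 passed at 2 days, the receptor THRA, which rose by 0.42 (limma adjusted p = 0.0221; lost without DMD KO replicate 2 or 4 or WT replicate 3), and none at 3 months (0 higher, 2 lower unadjusted).

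Insulin action, which induces SCD and THRSP in fat and liver, showed 4 of 8 measured genes higher in DMD KO at 2 days and none lower, with a median of 0.43. In either direction, 9.93% of all probe sets passed at that age. TBC1D1, a brake on glucose transporter release, rose by 1.51 ± 0.18, the insulin receptor INSR by 1.32 ± 0.16, IGF1R by 1.09 ± 0.13 and the glucose transporter SLC2A4 by 0.50 ± 0.09 (SE; limma adjusted p = 0.000643, 0.000647, 0.000643 and 0.00651). INSR read between 8.26 and 8.96 in DMD KO and between 7.13 and 7.40 in WT at 2 days, and 6.88 to 7.29 and 7.07 to 7.37 at 3 months, where the groups overlapped. At 3 months TBC1D1 rose by 0.92 and IRS1 fell by 0.42 (limma adjusted p = 0.0137 and 0.0322), and both calls were lost without replicate 3 of either genotype at that age, that of IRS1 also without replicate 2 of either (9 of 13 held; -0.47 to -0.36). Of 12 genes of fatty acid uptake and activation, 2 fell and 1 rose at 2 days (median -0.18). DBI, the acyl-CoA binding protein, fell by 1.19 ± 0.22 and ACSL3 by 0.999 ± 0.24, while ACSL4, another acyl-CoA synthetase, rose by 1.97 ± 0.34 (SE; limma adjusted p = 0.00654, 0.0232 and 0.00414). The call of ACSL3 was lost without DMD KO replicate 1 or 3 or WT replicate 1 or 2 (-1.20 to -0.83). None of these 12 passed limma's test at 3 months (2 higher and 2 lower at an unadjusted p under 0.05), where DBI differed by -0.71 (0.118).

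THRSP, SCD and DGAT2 were correlated over the arrays by level and by rank, and PPARG more by level than by rank. Pearson's r over the 13 arrays was 0.92 between THRSP and DGAT2, 0.84 between THRSP and SCD, 0.83 between PPARG and DGAT2, 0.75 between SCD and DGAT2, 0.70 between PPARG and THRSP and 0.62 between PPARG and SCD. Spearman's rho for the same pairs was 0.83, 0.77, 0.43, 0.68, 0.38 and 0.38. With group means taken away Pearson's r of these pairs was 0.81, 0.72, 0.64, 0.64, 0.40 and 0.63. These are descriptions: the arrays are shared by all genes, and the spread within groups was widest in WT at 2 days. For SCD it was wide in WT at 3 months too (SD 0.86, against 1.28 at 2 days). Among all named genes, those most like PPARG by r were ACVR1C (0.939), MAL2 (0.915), MGST3 (0.911), FAM213A (0.895) and EBF2 (0.889). Without WT replicates 2 and 3 at 2 days, the arrays farthest from the median of PPARG, they dropped to 0.35, 0.55, 0.66, 0.13 and 0.61. Most like THRSP were SDR16C5 (0.923), DGAT2 (0.922), DBI (0.922), HCST (0.921) and CIDEC (0.920), and without the same arrays HCST stayed at 0.92 while the others were between 0.60 and 0.74. For DGAT2 they were THRSP (0.922), ACAT2 (0.919), NEK2 (0.917), CIDEC (0.915) and SDR16C5 (0.902), which without those arrays lay between 0.13 for SDR16C5 and 0.80 for NEK2.

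SCD had other neighbours apart from DBI, which was also among the genes most like THRSP. Its most alike genes were CDO1 (0.944), which breaks down cysteine, DBI (0.933), PIK3C2B (0.922), TRAF5 (0.894) and DKK2 (0.879). Without WT replicate 2 at 2 days and WT replicate 1 at 3 months, the arrays farthest from its median, r was 0.89, 0.95, 0.89, 0.70 and 0.74. DBI read 10.14, 11.35 and 11.09 in WT replicates 1 to 3 and 9.53 to 9.85 in DMD KO at 2 days. At 3 months it read 10.54, 10.22 and 10.35 against 9.49 to 9.75, so it too kept WT above DMD KO at each age. Because DBI was picked for its likeness to SCD on these same arrays, that split follows in part from the choice. Every DMD KO animal lay below every WT animal for 10.5% of all probe sets at 2 days and 10.1% at 3 months. CDO1 read 7.66, 8.91 and 8.58 in WT and 7.40 to 7.64 in DMD KO at 2 days, and overlapped at 3 months, where WT replicate 2 stood at 7.70 and DMD KO replicate 2 at 7.94.

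**Figure D5:**
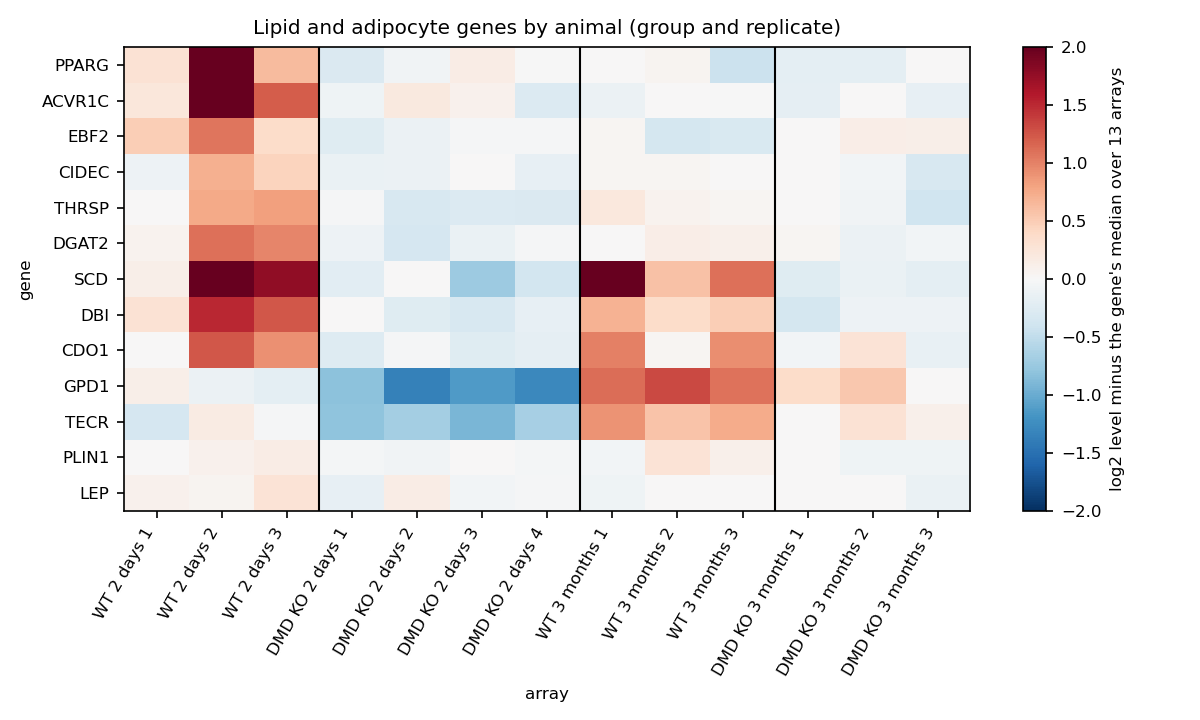
Log2 level of 13 genes (rows) on 13 arrays (columns, by group and replicate) minus the gene's median over the arrays, with colours past the ends of the scale drawn at the ends. PPARG, ACVR1C, THRSP and DGAT2 are darkest in WT replicates 2 and 3 at 2 days, SCD also in WT at 3 months, and GPD1 and TECR are lower in DMD KO than in WT at each age.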

How the data were processed

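The series holds 13 whole-transcript Affymetrix arrays of RNA extracted with Trizol and labelled with biotin. Per the submitters' processing notes they were processed with Affymetrix Power Tools, and the sources used here give no version, summary method, normalization or genome build. The deposited values were read as log2 levels because of their range, an inference, and were used without filter or further normalization. Of 21893 probe sets, 11028 carried 1 symbol in the platform annotation, 418 several and 10447 none, and 5 symbols were updated. A gene with several probe sets was represented by the one of highest mean on the 13 arrays.

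The 4 groups were fitted together, probe set by probe set, by lmFit and eBayes of limma 3.58.1 (R 4.3.3), with 9 residual degrees of freedom. Tests were two-sided, and p was adjusted by Benjamini-Hochberg over all probe sets of a comparison and called under 0.05. The fit was tested on simulated data. The 4 genes and all lists were chosen with earlier results of these data known. Named besides them were up to 4 called genes per list and direction, the 5 genes most alike to each by Pearson's r over the arrays, and list members known as defining markers, the last and the values by array being chosen after values were seen. Alternatives were fits on a comparison's own groups, other eBayes settings, other normalizations and filters, array weights, the replicate number as a block and each array left out. A covariate for the main axis of spread within groups was added after seeing the data.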

Additional observations from a re-analysis of the deposited data

Results flagged for a closer look

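In DMD KO at 2 days, the group of 4, 4 of 48 genes checked had a highest or lowest animal whose gap to its nearest neighbour took more of the group's range than the 95% limit for 4 samples, which chance passes in about 1 in 20 groups. The gap was 0.881 of the range for the highest THRSP value, replicate 1 at 7.93. It was 0.909 for the lowest DGAT1 value (replicate 2), 0.855 for the highest NCOA1 value (replicate 4) and 0.931 for the lowest ACAT2 value (replicate 2).

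The interaction of genotype and age (the DMD KO minus WT value at 3 months less that at 2 days) passed limma's test for 7 of the same 48 genes, and for 5.05% of all probe sets. Genes were named in part for passing a comparison, this interaction included. The count among the 48 therefore cannot be set against the share of all probe sets. Outside these 48 it also passed, by list, for 8 of 8 fibroblast markers, 3 of 7 macrophage markers and 1 of 5 muscle fibre markers. It was -0.67 for LPIN1 (adjusted p = 0.0284), -1.41 for INSR (0.00443), -0.73 for SLC2A4 (0.00853) and -0.87 for DLK1 (0.0183). It was positive, at 3.17 for PDK4 (0.048), 1.03 for EBF2 (0.0183) and 1.78 for THY1 (0.00104). With arrays left out in turn, the call held in 7 of 13 for LPIN1, in 3 for PDK4 and in 11 for EBF2, and in all 13 for the other 4. None of PPARG, THRSP, SCD and DGAT2 passed this test.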

How the results depend on the processing

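The 25 results were the 5 comparisons for each of the 4 genes and the 5 counts of called probe sets. Over 8 settings, with no fit on a comparison's own groups for the interaction, 162 values kept their direction and side of the threshold (counts: stayed within 1.5 times) and 33 did not. The causes were not tested. At 2 days the adjusted p of PPARG passed under quantile normalization (-1.05, 0.0452), over probe sets above the median level (-1.04, 0.0383), where fewer are tested, and with the main axis of spread within groups as a covariate, chosen after seeing the data (-1.32, 0.0281). With that covariate THRSP (-0.63, 0.0709) and DGAT2 (-0.78, 0.0508) did not pass, and PPARG passed in the age comparison in WT (-1.17, 0.0336). On the 7 arrays of that age alone SCD (-1.83), DGAT2 (-0.86) and THRSP (-0.75) kept their values and did not pass, nor did they under array weights (-0.80, -0.36 and -0.34). Array weights turned PPARG at 3 months (0.087), SCD with age in WT (0.69) and the SCD interaction (-0.52), none of which had passed.

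No pairing by the animals' replicate numbers was seen. Correlations of deviations ran from -0.50 to 0.33 (median -0.06) in 18 pairs of equal number. In 45 pairs of unequal number they ran from -0.66 to 0.66 (median 0.04), and 4 of 12 arrays correlated best with their own number. Nothing in the labels ties the numbers to litters or days, and with so few animals per group this check cannot exclude such a tie. With a replicate block SCD (-1.82), THRSP (-0.73) and DGAT2 (-0.90) at 2 days did not pass, and the counts below fell.

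Over all probe sets, 2175 were called at 2 days, against 1275 on that age alone, 5438 with array weights, 735 with the replicate block and 1143 to 3210 with an array left out. At 3 months 1310 were called, against 3412, 829 and 702 to 2036 for weights, block and left-out arrays. For age in WT the count was 633, against 40 on WT alone, 2562, 325 and 368 to 757, and 1983 with the axis covariate. For age in DMD KO it was 1760, against 3743, 1087, 1180 to 2294 and 3253, and for the interaction 1105, against 2760, 580, 789 to 1265 and 2566.

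With each array left out, SCD ran from -2.53 to -1.27, THRSP from -1.01 to -0.60, DGAT2 from -1.19 to -0.67 and PPARG from -1.39 to -0.52 at 2 days, and SCD from -1.88 to -1.04 at 3 months, which passed without WT replicate 1 at 2 days (adjusted p = 0.0311). PPARG at 3 months ran from -0.15 to 0.086 and THRSP with age in DMD KO from -0.0069 to 0.19. With age in WT, PPARG ran from -1.46 to -0.59, THRSP from -0.68 to -0.27, SCD from -0.88 to 0.38 and DGAT2 from -0.96 to -0.44. The interaction ran from 0.34 to 0.75 for THRSP, from -0.24 to 1.01 for SCD and from 0.55 to 1.07 for DGAT2. DMD at 2 days ran from -0.16 to 0.26 and MLXIPL from -0.32 to 0.016. The difference of DMD at 2 days turned with array weights (-0.17) and the axis covariate (-0.088), and that of MLXIPL with both (0.071 and 0.068). Among the other genes followed with arrays left out, 16 of 30 calls at 2 days and 3 of 8 at 3 months held whichever array was left out. CKMT2 and some genes named only for likeness were not among those followed. The deposited values have no detection calls or background, so signal over background could not be given.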
